A study of Mus musculus with 4 samples.

Results

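The glycolysis and hypoxia response genes are a list of 35 mouse genes: the glucose and lactate transporters, the enzymes that turn glucose into lactate, the kinases that hold pyruvate back from the mitochondrion, the oxygen-sensing proteins and well-known targets of the hypoxia-inducible factor HIF-1. A member was measured where a probe set, the group of short oligonucleotides that reads a transcript on the array, was annotated with that gene alone, and the brightest such probe set, by its mean on all 4 arrays, stood for it. This gave 32 of the 35 genes, out of 18194 genes measured in all. No probe set of the annotation named Eno1 or Gpi1, and those naming Bnip3l also named its pseudogene, so these 3 genes were not analysed as members. RNA came from T cells of the spleen of wild-type B6 mice that were sorted on CD44 and CD122, which both groups carry. The Ly49+ group (2 arrays) was CD44+CD122+Ly49+, called CD8+ Treg in the labels, and the Ly49- group (2 arrays) was CD44+CD122+Ly49-, the conventional memory cells with which the series compares them. No treatment was given, and the labels state neither the age of the mice nor whether replicates came from separate or pooled animals, so the p-values may rest on technical spread alone.

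Glycolysis splits glucose into pyruvate in the cytosol and yields ATP without oxygen, and lymphocytes raise its flux when they are activated and divide. HIF-1 is a transcription factor whose alpha chain, encoded by Hif1a, is hydroxylated by the prolyl hydroxylases of the Egln genes when oxygen is present, bound by the VHL protein and destroyed. When oxygen is scarce the chain persists and induces genes of glucose uptake, glycolysis, lactate export and angiogenesis, and also Egln3 itself. Memory CD8 T cells at rest are known for relying more on mitochondrial respiration than effector cells do.

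Differences in the pathway between Ly49+ and Ly49- cells were small, and 1 gene passed the test. Egln3 was higher in Ly49+ cells (limma adjusted p = 0.040), no member was lower, and 31 did not pass. Over all genes, 728 of 18194 passed, a share of 4.0%, with 1.93% higher and 2.07% lower. The median log2 fold change of the 32 members, Ly49+ over Ly49- on the log2(intensity + 16) scale, was -0.04, as was that of all genes. The differences ran from -0.27 for Ankrd37 to 0.52 for Egln3. For 30 of the 32 members, the 95% interval of the difference lay within 0.5 on the log2 scale either way (1.41-fold), which held for 90.5% of all genes, and Hk2 and Egln3 were the members whose interval reached beyond it. The intervals of all 32 lay within 1 (2-fold).

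**Figure D1:**
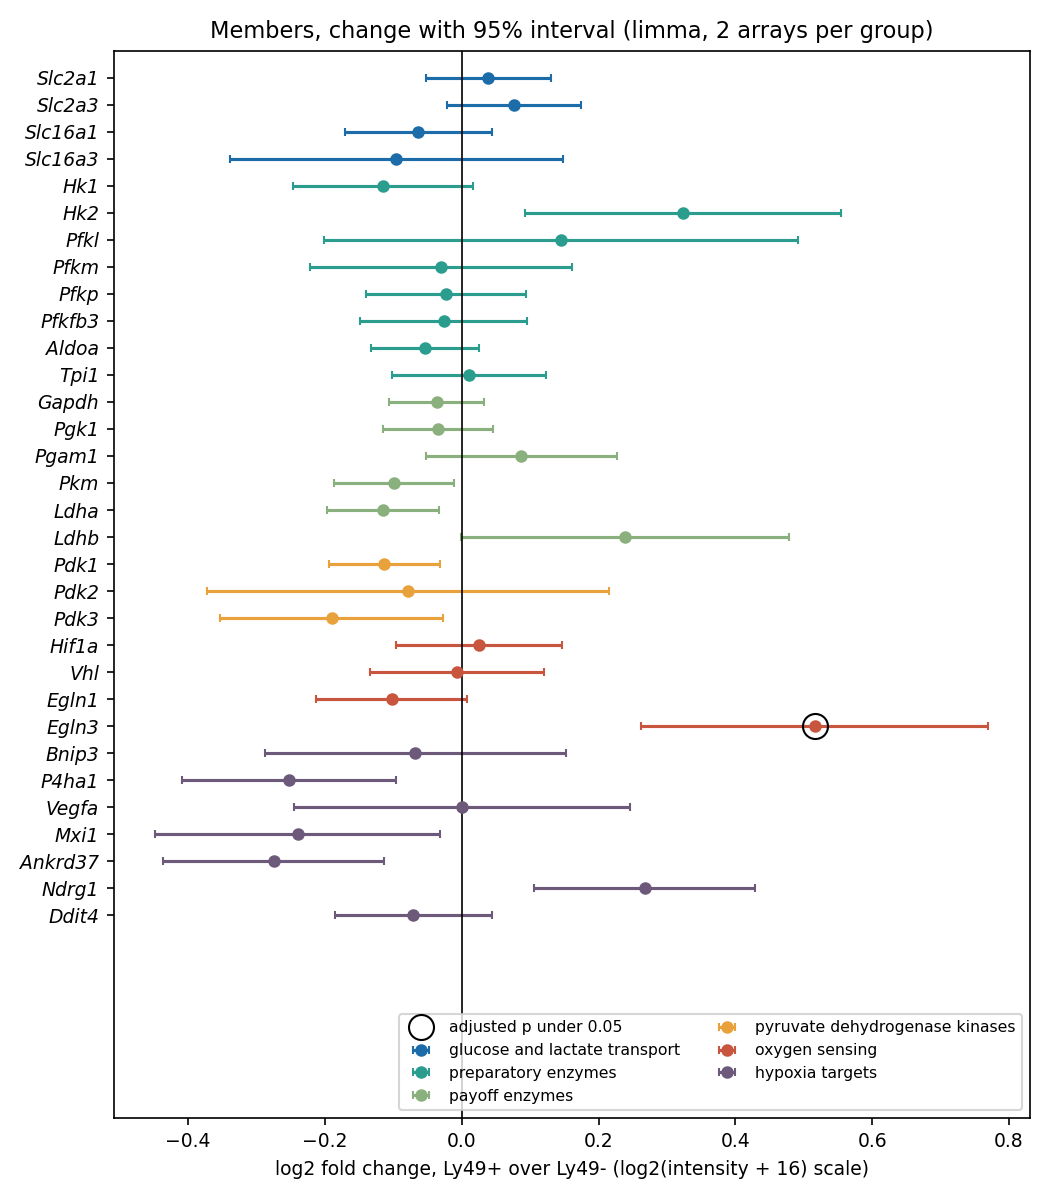
The log2 fold change of each measured member, Ly49+ over Ly49- cells, on the log2(intensity + 16) scale, with its 95% interval from limma (2 arrays per group); colours give the role and the circle marks an adjusted p under 0.05. Egln3, at 0.52, is the circled gene, and most intervals lie within 0.5 of 0.

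Array medians lay between 188.5 and 190.4 intensity units, so overall brightness had been equalised by the time of deposit, and precision is limited by having 2 arrays in each group. Cd8a did not pass between the groups (log2 fold change -0.06), and the Ly49 receptor gene Klra7, a target of the sort, was higher in Ly49+ cells by 3.28. On the array of Ly49- replicate 1, an older control probe set for a bacterial spike (BioB, 3' end) read 702, against 2750.4 to 3084 on the other 3 arrays, while a newer probe set for the same spike read 2833 to 3111 on all 4. Some markers of other spleen cells moved with the group. Of 20 measured myeloid and macrophage markers, 15 were higher in Ly49+ cells and 2, S100a8 and S100a9, were lower. The summed intensity of all 20 was 29567 and 32958 in Ly49+ against 19595 and 19843 in Ly49- samples. The macrophage genes Csf1r (3758 and 4242 against 2635 and 2746) and Adgre1 (896 and 973 against 574 and 599) lay above the highest reading of the Bacillus subtilis control probe sets (70.3, taken here as background) on every array, whereas Itgam read below it on every array. What part these markers' cells have in the members' values was not tested. Of 15 B-cell markers 5 were higher (H2-Ab1, H2-Eb1, H2-Aa, Cd74 and Cd22) and 1 lower (Cd79b). The B-cell markers Pax5, Cr2 and Fcer2a had means below background in both groups. Of 9 dendritic-cell markers 1 was higher (Xcr1) and 1 lower (Bst2), and 7 had an unadjusted p under 0.05 (18.0% of all genes). Of 9 NK-cell markers 4 were higher (Fcer1g, Cd244a, Tyrobp and Itga2). Gzma lay the other way without passing (-0.95), and Ncr1 and Klrb1b had means below background in both groups. Of 12 T-cell markers 0 passed at an adjusted p under 0.05, with 2 at an unadjusted p under 0.05 (18.0% of all genes). Of 30 cell cycle genes 20 were lower and 0 higher. In such bulk samples, fewer cells of a type and less RNA per cell cannot be told apart.

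The transporters that bring glucose in and carry lactate out differed little. Slc2a1, which encodes the glucose transporter GLUT1, read 9121 and 8757 in Ly49+ and 8680 and 8716 in Ly49- samples. The Ly49+ values were the higher ones without overlap, by a log2 fold change of 0.04 ± 0.04 (SE, 2 arrays per group, adjusted p = 0.68), and its further probe sets gave 0.13 and 0.05. Slc2a3, which encodes the high-affinity transporter GLUT3, read 8886 and 8510 against 8412 and 8087. Its groups did not overlap either, at a log2 fold change of 0.08 (adjusted p = 0.40). That probe set is open to cross-hybridisation (its name ends in _s_at), and the brightest of the others that are not, 1427770_a_at, overlapped and lay the other way, at 163 and 135 against 199 and 138 (-0.15), while the remaining probe sets gave 0.17 and 0.04. Slc16a1, the lactate carrier MCT1, differed by -0.06 (adjusted p = 0.54), and Slc16a3, the lactate exporter MCT4, read 186 and 192 against 207 and 199.6 (-0.10, adjusted p = 0.71). In all 4 transporter genes the groups did not overlap, which was the case for 48.4% of all genes, and none of the 4 had an unadjusted p under 0.05.

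Among the enzymes of the upper part of glycolysis, which spend ATP to make triose phosphates, none of 8 measured passed. Of these 8, 1 (Hk2) had an unadjusted p under 0.05, beside 18.0% of all genes. Hk2, the inducible hexokinase that traps glucose as glucose 6-phosphate, read 1135 and 1243 in Ly49+ samples against 859 and 1042 in Ly49- samples. All Ly49+ values lay above all Ly49- values, with a log2 fold change of 0.32 (95% interval 0.09 to 0.55, adjusted p = 0.13). The constitutive hexokinase Hk1 lay the other way, at 2054 and 2051 against 2177 and 2270 (-0.11, adjusted p = 0.35). The 3 subunit genes of phosphofructokinase, the committed step, had log2 fold changes of -0.02 for Pfkp, -0.03 for Pfkm and 0.15 for Pfkl (adjusted p of 0.87, 0.90 and 0.68). Pfkl had the largest standard error of the members (0.15): it read 2861 in replicate 1 and 2013 in replicate 2 of the Ly49+ group, and 2418 and 1944 in the Ly49- group, and its further probe sets gave -0.14 and -0.09. Pfkfb3, whose product makes the allosteric activator of phosphofructokinase, was almost flat at 2446 and 2445 against 2485 and 2497 (-0.03, adjusted p = 0.86). The aldolase gene Aldoa (-0.05) and the triose phosphate isomerase gene Tpi1 (0.01) did not pass either, with adjusted p of 0.48 and 0.95. All 5 probe sets of Aldoa are open to cross-hybridisation (names ending in _x_at). Tpi1 gave -0.04 without its probe set open to cross-hybridisation.

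The 6 measured enzymes of the later, ATP-yielding steps and of lactate formation did not pass, and the lactate dehydrogenase subunits lay on opposite sides of 0. Gapdh was read by probe sets that the array carries as controls, at 21988 and 21849 in Ly49+ and 22322 and 22631 in Ly49- samples. Its log2 fold change was -0.04 ± 0.03 (SE, adjusted p = 0.60), and its 5' and middle probe sets gave -0.00 and -0.02. Pgk1, phosphoglycerate kinase, differed by -0.03 and Pgam1, phosphoglycerate mutase, by 0.09 (adjusted p = 0.67 and 0.52). Pkm, pyruvate kinase, read 8210 and 8059 against 8669 and 8761 (-0.10, unadjusted p = 0.031, adjusted p = 0.22). Ldha, the subunit of lactate dehydrogenase associated with lactate production, read 14251 and 14494 against 15281 and 15862. Both Ly49+ values lay below both Ly49- values, a log2 fold change of -0.12 ± 0.04 (SE) with an adjusted p of 0.13.

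Ldhb, the other lactate dehydrogenase subunit, which is associated with use of lactate, read 544 and 506 in Ly49+ against 412 and 475 in Ly49- samples with its brightest probe set. The groups did not overlap, and the log2 fold change was 0.24 ± 0.11 (SE, adjusted p = 0.28). All 4 probe sets of Ldhb were higher in Ly49+ cells without overlap, by 0.24 to 0.50. The gene passed when probe sets open to cross-hybridisation (names ending in _x_at or _s_at, which may also bind other transcripts) were left out, since 1434499_a_at then stood for it at 543 and 529 against 354 and 394 (log2 fold change 0.50, adjusted p = 0.028). Tested among all 45101 probe sets, of which 1.14% passed, that probe set did not pass (adjusted p = 0.088).

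**Figure D2:**
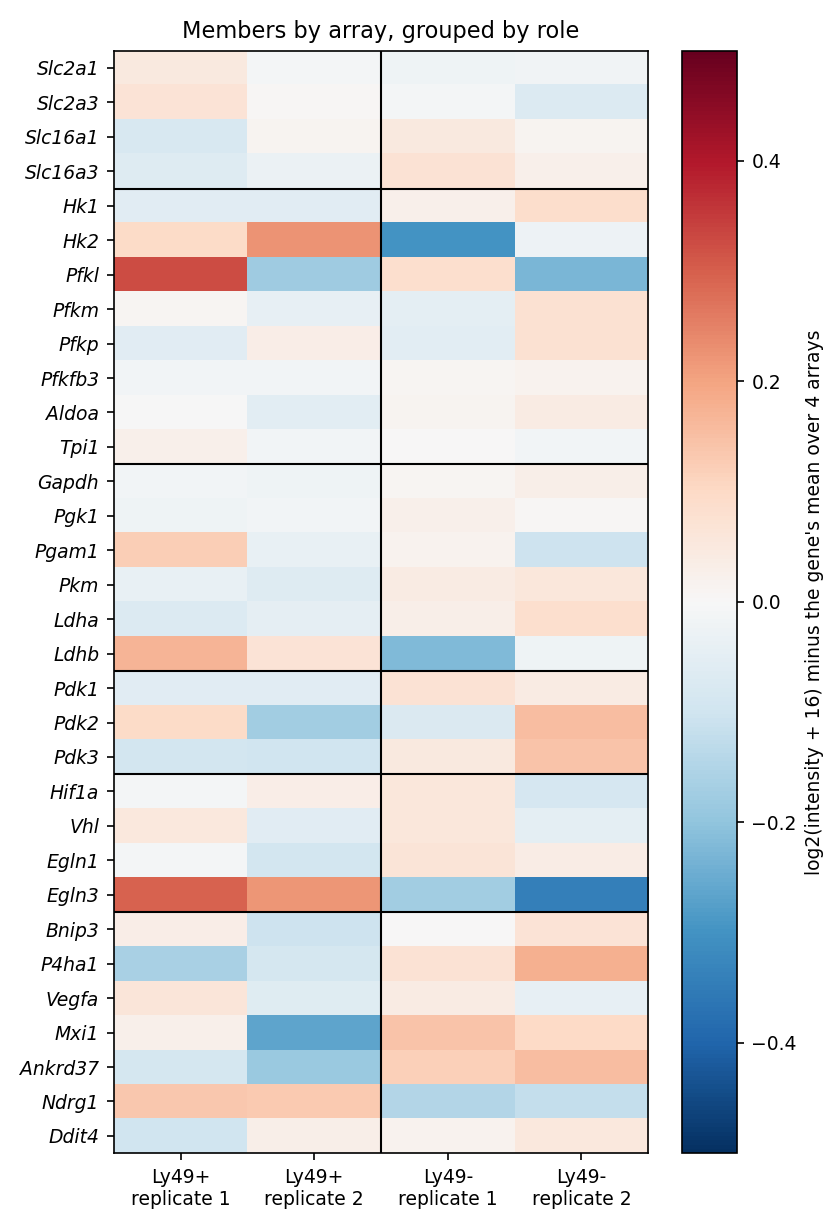
Each measured member on each array as log2(intensity + 16) minus that gene's mean over the 4 arrays, with red above and blue below the mean; horizontal lines separate the roles in the order described in the text, and the vertical line separates the Ly49+ from the Ly49- arrays. Egln3, Ldhb, Hk2 and Ndrg1 are high on both Ly49+ arrays, P4ha1 and Ankrd37 are high on both Ly49- arrays, and Pfkl differs between replicates within each group.

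Of the 3 pyruvate dehydrogenase kinases, which switch off entry of pyruvate into the citric acid cycle, none passed; all 3 values were negative, as were 11883 of all 18194. Pdk1, a known HIF-1 target, read 11438 and 11432 in Ly49+ against 12506 and 12231 in Ly49- samples. The groups did not overlap, and the log2 fold change was -0.11 ± 0.04 (SE, unadjusted p = 0.012, adjusted p = 0.13). All 4 of its probe sets had negative values, from -0.05 to -0.23. Pdk3 read 1107 and 1102 against 1222 and 1303, also without overlap (-0.19, adjusted p = 0.21). Pdk2 overlapped, at 377 and 309.97 against 334 and 393 (-0.08, adjusted p = 0.81).

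In the oxygen-sensing machinery, 1 of 4 measured members, Egln3, passed with its brightest probe set, beside 4.0% of all genes. A dimmer probe set of Hif1a passed in the fit of all probe sets, as described below. Egln3 encodes PHD3, a prolyl hydroxylase that marks HIF-alpha chains for destruction and is itself induced by HIF. Egln3 read 324 and 308 in Ly49+ samples and 229.8 and 203 in Ly49- samples. Both Ly49+ arrays were above both Ly49- arrays, with means of 316 ± 11.5 against 216 ± 18.8 (SD, 2 arrays each) and a 1.43-fold difference (log2 fold change 0.52 ± 0.11 SE, 95% interval 0.26 to 0.77, adjusted p = 0.040). Its other probe set read 283 and 207 against 143 and 159.8, in the same direction (0.63), and neither passed when each probe set was tested on its own (adjusted p = 0.11 and 0.16). The call was lost whenever 1 array was left out: the adjusted p was then 0.22 or 0.14 when replicate 1 or 2 of the Ly49+ group was dropped, and 0.11 or 0.24 when replicate 1 or 2 of the Ly49- group was dropped, at log2 fold changes of 0.43 to 0.60. It was also lost with a pseudocount of 64 (adjusted p = 0.055). The summed macrophage markers moved with it (29567 and 32958 against 19595 and 19843), and their part in the rise of Egln3 was not tested. The other prolyl hydroxylase on the list, Egln1 (PHD2), which sets HIF-1 levels in most cells, read 5014 and 4729 against 5280 and 5179 (-0.10, adjusted p = 0.31). Vhl, the adaptor of the ubiquitin ligase, differed by -0.01 (adjusted p = 0.97).

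Hif1a itself gave different answers on different probe sets. The brightest, 1427418_a_at, read 7256 and 7474 in Ly49+ against 7604 and 6889 in Ly49- samples. The groups overlapped, and the log2 fold change was 0.03 (adjusted p = 0.86). The probe set 1448183_a_at read 1911 and 2026 in Ly49+ against 2948 and 2794 in Ly49- samples. These groups lay far apart, with a log2 fold change of -0.54 ± 0.07 (SE) that passed among all 45101 probe sets (adjusted p = 0.019); it was the only 1 of the 73 probe sets naming a member alone to do so, against 1.14% of all probe sets. Another, 1416035_at, read 2245 and 2342 against 2727 and 2650.3, in the same direction without passing (-0.23, adjusted p = 0.18), and 1431981_at overlapped at 215 and 169 against 222 and 167. The call of 1448183_a_at was lost without any 1 array (adjusted p from 0.10 to 0.12) and without a trend of the spread (0.068). The part of the Hif1a transcripts that each probe set reads was not analysed here.

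**Figure D3:**
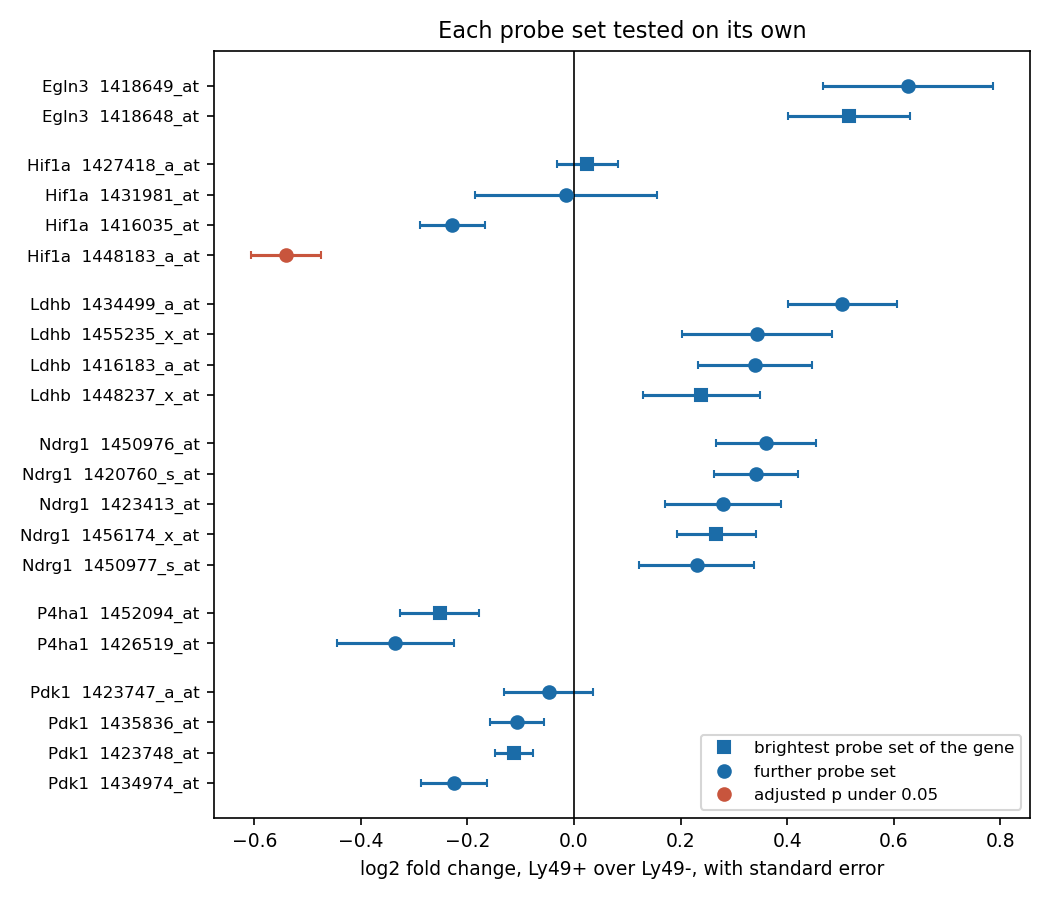
The log2 fold change, Ly49+ over Ly49-, of every probe set that names Egln3, Hif1a, Ldhb, Ndrg1, P4ha1 or Pdk1 alone, each tested on its own with its standard error; squares are the brightest probe set of a gene and the red point has an adjusted p under 0.05. The probe sets of Egln3, Ldhb and Ndrg1 all lie above 0 and those of P4ha1 and Pdk1 below it, while Hif1a runs from 0.03 down to -0.54.

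The targets of HIF-1 outside glycolysis did not move as a block. None of 7 measured passed. Negative values were found in 5 of them (11883 of 18194 over all genes), and 4 had an unadjusted p under 0.05 (18.0% of all genes). Ankrd37, an ankyrin-repeat gene known as a HIF-1 target, read 1189.6 and 1110.2 in Ly49+ against 1378 and 1410.05 in Ly49- samples. Its groups were separate, with a log2 fold change of -0.27 ± 0.07 (SE, adjusted p = 0.077). P4ha1, the catalytic subunit of collagen prolyl 4-hydroxylase, read 1430.4 and 1508 against 1689 and 1817, again without overlap (-0.25, adjusted p = 0.090), and its second probe set gave -0.34. Mxi1, which encodes a MAX partner that opposes MYC, read 1941 and 1583 against 2104 and 2043 (-0.24, adjusted p = 0.21). Its value was -0.39 when Ly49+ replicate 1 was dropped and -0.09 when Ly49+ replicate 2 was dropped, and its other probe set gave -0.05. The summed intensity of the 30 cell cycle genes was also lower in Ly49+ samples, at 87763 and 84875 against 101948 and 102602, and its part in these values was not tested.

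Ndrg1, a stress- and hypoxia-induced gene, lay on the other side. It read 1159 and 1155 in Ly49+ samples and 949.9 and 968 in Ly49- samples. Replicates differed by far less than the groups, and the log2 fold change was 0.27 ± 0.07 (SE, adjusted p = 0.084). All 5 probe sets of Ndrg1 were higher in Ly49+ cells without overlap, by 0.23 to 0.36, and none passed on its own (smallest adjusted p = 0.13). The brightest, 1456174_x_at, is open to cross-hybridisation, as are 1420760_s_at and 1450977_s_at. The others, 1450976_at and 1423413_at, gave 0.36 and 0.28. Over all genes, the groups did not overlap for 48.4%. Ddit4, which encodes the mTORC1 inhibitor REDD1, overlapped at 7223 and 7906 against 7834 and 8041 (-0.07, adjusted p = 0.52), as did the mitophagy receptor gene Bnip3 at 516 and 468 against 503 and 528 (-0.07, adjusted p = 0.78). Vegfa, the angiogenic growth factor, was dim and level, at 94.2 and 85.1 against 92.7 and 86.5 (0.00, adjusted p = 0.9993), close to the background of 70.3. The 3 probe sets shared by Bnip3l, a relative of Bnip3, and its pseudogene differed by -0.02 to 0.05.

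The promoters of Egln3, the member that passed, and of 3 HIF-1 targets with negative values (Ankrd37, P4ha1 and Ldha) are shown for where the core of the hypoxia response element lies in them. Sequences are the 250 bases before the annotated start, 5′ to 3′ on the gene's strand, from RefSeq (GRCm38.p6), where 32 of the 35 genes had an entry. Capitals mark ACGTG or GCGTG on either strand, and these cores can overlap each other, as in CACGTG.
Egln3 (chr12:54203875-54204124, minus strand): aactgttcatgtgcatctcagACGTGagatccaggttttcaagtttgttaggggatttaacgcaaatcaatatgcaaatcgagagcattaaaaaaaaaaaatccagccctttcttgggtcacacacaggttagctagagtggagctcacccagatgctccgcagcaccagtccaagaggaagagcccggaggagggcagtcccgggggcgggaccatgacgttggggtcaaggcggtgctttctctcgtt
Ankrd37 (chr8:45999851-46000100, minus strand): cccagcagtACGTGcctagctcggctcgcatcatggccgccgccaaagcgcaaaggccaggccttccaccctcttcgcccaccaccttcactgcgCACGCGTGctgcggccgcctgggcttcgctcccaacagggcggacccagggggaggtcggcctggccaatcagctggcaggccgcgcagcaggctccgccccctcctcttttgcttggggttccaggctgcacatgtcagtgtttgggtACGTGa
P4ha1 (chr10:59323046-59323295, plus strand): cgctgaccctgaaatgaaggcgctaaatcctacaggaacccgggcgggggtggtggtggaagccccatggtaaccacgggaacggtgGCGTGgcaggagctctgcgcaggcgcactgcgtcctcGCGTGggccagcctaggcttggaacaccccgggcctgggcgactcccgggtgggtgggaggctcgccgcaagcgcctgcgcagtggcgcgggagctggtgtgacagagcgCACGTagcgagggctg
Ldha (chr7:46845554-46845803, plus strand, the first of its 2 entries): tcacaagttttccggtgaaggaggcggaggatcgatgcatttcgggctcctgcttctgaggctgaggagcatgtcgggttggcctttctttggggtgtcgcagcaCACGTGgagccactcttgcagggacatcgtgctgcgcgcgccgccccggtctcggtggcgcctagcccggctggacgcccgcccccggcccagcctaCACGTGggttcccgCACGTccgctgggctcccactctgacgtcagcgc
The Egln3 window held 1 match, whose first base lies at position -229 from the start. The Ankrd37 window held 4 matches, P4ha1 held 3 and this Ldha entry held 5. The other members with an unadjusted p under 0.05 varied too. Of those with positive values, Hk2 held 2, and Ndrg1 had no promoter entry. Among those with negative values, Pdk3 held 4, the 2 entries of Pdk1 held 1 and 0, and those of Pkm 0 and 1. The 3 entries of Mxi1, also negative, held 0, 1 and 1. The second Ldha entry held 1, and no relation of match counts to direction is read from these windows. Over all 32851 promoter windows of the same length, 38.6% held ACGTG or GCGTG on either strand, 16.6% held ACGTG and 28.2% held GCGTG. These are matches of letters in the annotated window alone, and a match is not a bound site.

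Of the 32 members, 10 had an unadjusted p under 0.05, where 18.0% of all genes did: 3 with positive values (Egln3, Ndrg1 and Hk2) and 7 with negative values (Ankrd37, P4ha1, Mxi1, Ldha, Pdk1, Pdk3 and Pkm). The groups did not overlap for 21 members, 6 with Ly49+ above and 15 with Ly49+ below, beside 13.2% and 35.2% of all genes. Of the 21 members read by several probe sets, 11 had 1 sign in all of them and 10 had both signs.

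Of 46 other genes of glycolysis and pyruvate use, 3 passed (1 higher and 2 lower in Ly49+ cells) and 43 did not. The share that passed was 6.5%, beside 4.0% of all genes, and the median log2 fold change was -0.07. Gpd2, the mitochondrial glycerol 3-phosphate dehydrogenase that passes cytosolic reducing power to the respiratory chain, read 4115 and 4256 in Ly49+ against 3480 and 3494 in Ly49- samples (log2 fold change 0.26, adjusted p = 0.021). That probe set is open to cross-hybridisation, and the brightest of its other probe sets gave -0.02 (adjusted p = 0.91). Adpgk, an ADP-dependent glucokinase, fell by 0.20 on the log2 scale (5228 and 5298 against 5995 and 6124, adjusted p = 0.037). Mpc1, a subunit of the mitochondrial pyruvate carrier, fell by 0.24 (3421 and 3291 against 4095 and 3851, adjusted p = 0.044). Gpd2, Adpgk and Mpc1 each had an adjusted p above the threshold when any 1 array was left out (0.11 to 0.28 over the 3 genes), and Adpgk and Mpc1 also after quantile normalization (0.083 and 0.072). When each gene's probe sets were averaged, none of the 3 passed: Adpgk differed by -0.10 (adjusted p = 0.43), Gpd2 by 0.19 (0.099) and Mpc1 by -0.24 (0.053). Next in order of p were Pgm2, phosphoglucomutase (-0.29, adjusted p = 0.053), the monocarboxylate carrier gene Slc16a7 (0.44, 0.12) and Dld, a subunit of the pyruvate dehydrogenase complex (-0.20, 0.12).

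Of 56 other genes of the HIF pathway and its targets, 2 were higher, 2 lower and 52 did not pass. The share that passed was 7.1%, beside 4.0% of all genes, and the median was -0.01. Stc2, a secreted glycoprotein induced by stress, was 2.12-fold lower in Ly49+ cells, at 542 and 582 against 1100.3 and 1325 (log2 fold change -1.08, adjusted p = 0.0010). Cdkn3, a phosphatase of cycling cells that acts on cyclin-dependent kinases, read 250.5 and 281 against 441 and 444 (-0.70, adjusted p = 0.0081). Rragd, a Rag GTPase that recruits mTORC1 to the lysosome, was higher at 1900.2 and 1849.5 against 1318 and 1365 (0.48, adjusted p = 0.0047). Hmox1, heme oxygenase 1, was higher at 3096 and 3773 against 2240.3 and 2173 (0.63, adjusted p = 0.0055), and it is also in the macrophage marker list, of which 15 of 20 were higher. Dropping replicate 1 or 2 of the Ly49- group left Stc2 past the test but not Rragd (adjusted p = 0.067 and 0.058), Hmox1 (0.088 and 0.12) or Cdkn3 (0.093 and 0.11). Dropping Ly49+ replicate 1 gave 0.055 for Rragd and 0.065 for Cdkn3, and Stc2 passed with any 1 array dropped. With the mean of all its probe sets, Rragd differed by 0.13 (adjusted p = 0.49). Plin2 (0.27), Kdm4b (-0.25) and Cul2 (-0.14), next in order of p, had adjusted p of 0.12, 0.13 and 0.23.

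Among 32 measured genes of the MYC-MAX network and of mTORC1, which set the growth programme that includes glycolysis, 2 were higher, 0 lower and 30 did not pass. The share that passed was 6.25%, beside 4.0% of all genes. An unadjusted p under 0.05 was found for 6 of the 32 (18.0% of all genes), and the median was -0.05. Mycl, a MYC relative, read 349 and 328 in Ly49+ against 152 and 187 in Ly49- samples (log2 fold change 0.94, adjusted p = 0.0047), and Mxd1, a MAX partner that opposes MYC, read 2788 and 2646 against 2156 and 2080.5 (0.36, adjusted p = 0.012). When each gene's probe sets were averaged, Mycl differed by 0.31 (adjusted p = 0.11) and Mxd1 by 0.19 (adjusted p = 0.19). Mycl did not pass without Ly49- replicate 1 (adjusted p = 0.068), and Mxd1 did not pass without any 1 array (adjusted p from 0.064 to 0.13). Mtor (-0.21), Myc (0.12) and Rragc (-0.10) had adjusted p of 0.12, 0.22 and 0.26.

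**Figure D4:**
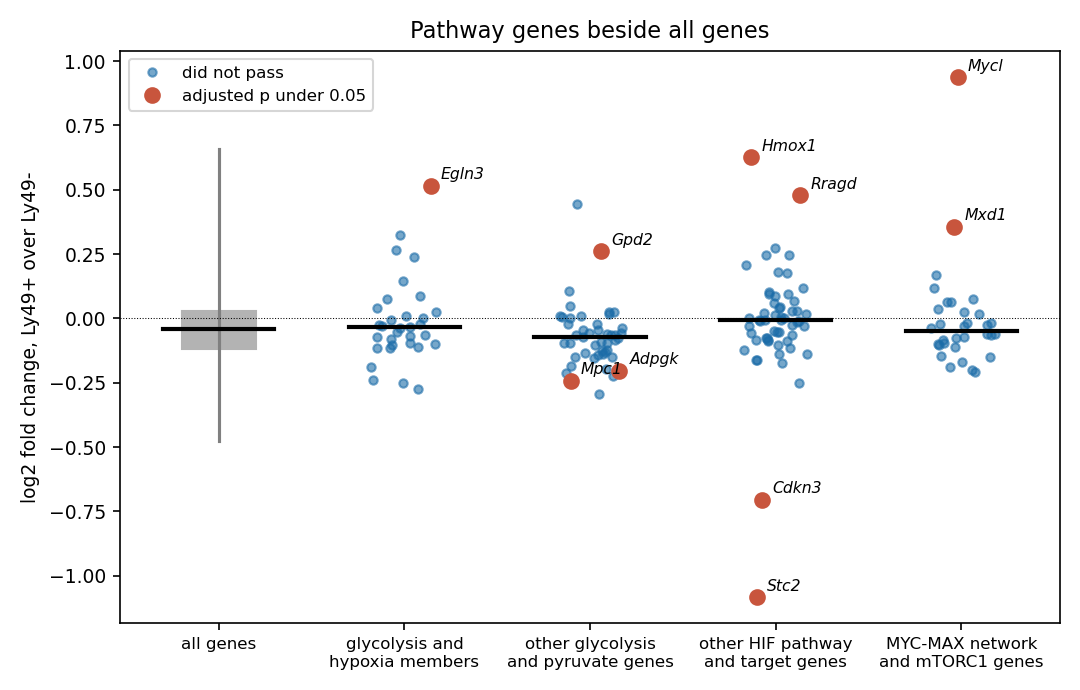
Log2 fold change, Ly49+ over Ly49-, for all genes (the line spans percentiles 1 to 99, the grey box 25 to 75) and for each gene of the members and of 3 further lists; thick bars are medians and red points have an adjusted p under 0.05. The medians of the lists lie between -0.07 and -0.01, beside -0.04 for all genes, and the named points are the genes that passed.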

How the data were processed

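The deposited values were linear intensities per probe set on Affymetrix mouse arrays, read as such from the values (8.32 to 43959); per the labels' protocols, RNeasy-purified total RNA was biotin-labelled. How the authors summarised and normalized them is not stated in these sources, and no scanner files were used. Of 45101 probe sets, 34958 had 1 gene symbol in the platform annotation, 932 several, 9160 were not listed and 51 were controls without a gene. The 13 control probe sets naming a mouse gene were kept, since Gapdh has no other of its own. Intensities were taken as log2(intensity + 16) without further normalization, so fold changes understate those of dim genes. Groups and replicate numbers came from sample titles. The test was limma's moderated fit (version 3.58.1, R 4.3.3; lmFit, eBayes with a trend, 2 residual and 6.70 prior degrees of freedom), the data.table package at version 1.17.8, Benjamini-Hochberg adjustment over 18194 genes and a threshold of 0.05; a second fit covered all probe sets. The fit was checked on simulated data. Named genes were all measured members and, from 3 further lists, each gene past the threshold plus the next 3 by p. Members and lists were chosen with earlier results of these data known. Alternatives were another normalization, pseudocounts of 1 and 64, brighter genes alone, other choices of probe set, other estimates of the spread, a replicate block, a threshold of 0.1 and leaving out each array.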

Additional observations from a re-analysis of the deposited data

How the results depend on the processing

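With 2 arrays per group, the calls rested on every array: with 1 left out, the lone array being assumed to vary like the other group, the count was 107 to 290 for all genes (728 with all arrays), 0 for the members (1), 0 for the other glycolysis genes (3), 1 to 4 for the other HIF genes (4) and 0 to 1 for the MYC and mTORC1 genes (2). Without a trend of the spread, 371 of all genes, 0 other glycolysis genes and 1 MYC and mTORC1 gene passed. At an adjusted p under 0.1, 1256 genes and 4 members passed, the latter joined by P4ha1, Ankrd37 and Ndrg1. No member passed with a pseudocount of 64, nor among the brighter genes alone, where Egln3 was not tested (0 each), and 2 passed without probe sets open to cross-hybridisation (Egln3 and Ldhb). Quantile normalization left 1 other glycolysis gene (Gpd2). Averaging each gene's probe sets lost all 3 and gained Pgm2, a count of 1. Of the MYC and mTORC1 genes, 1 passed among the brighter genes, where Mycl was not tested, and 0 with averaging. Gpd2 changed sign without open probe sets (-0.020), as did Slc2a3 and Tpi1, which passed in neither fit. Hif1a changed sign when another probe set, 1448183_a_at, was taken for it (-0.54); the cause was not tested. The replicate numbers were treated as names, since the labels do not say that they pair samples; deviations of same-numbered samples correlated at 0.24 over all genes and 0.41 over the members, and the median immediate early gene was higher in replicate 1 than in replicate 2 by 0.49 in the Ly49+ and 0.50 in the Ly49- group (log2). With a replicate block, 1529 genes, 6 members (adding Hk2, P4ha1, Mxi1, Ankrd37 and Ndrg1) and 6 other glycolysis genes passed. Leaving out the control probe sets, chosen after seeing the data, and a robust spread changed no member's call.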
